A study of Ovis aries with 6 samples.

Results

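The cell cycle genes described here are 35 genes listed by name, 13 that act around DNA replication in S phase and 22 that act in G2 and mitosis, in the rumen epithelium of 6 male lambs. The genes were picked by name and phase, not by a threshold on their values, and 34 of the 35 were read from the 26741 genes of the count matrices: 13 of the S phase genes and 21 of the G2/M genes. The G2/M gene HMMR is not analysed here. The study sequenced RNA from single nuclei of the ventral sac of the rumen, with 1 droplet library for each lamb, and the series is titled for the links between grass, microbes and rumen in grazing sheep given supplementary feed. The labels give 3 lambs the treatment MGNS and 3 the treatment MGHS, and leave both names unexplained. All 6 animals were males from the same sampling, and the sources used here give neither their age nor their strain. The question addressed was whether these genes differed between MGHS and MGNS in the keratinocyte layers, the lymphocytes and the stroma, and how much of a difference lay in the share of nuclei in cycle and how much in the level within such nuclei.

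A cell that divides first loads the MCM2 to MCM7 helicase onto its DNA with the help of CDC6, then copies the DNA in S phase with PCNA as the sliding clamp of the polymerases, and divides in mitosis under the cyclins and CDK1. Transcripts of S phase genes gather under E2F factors around the start of replication, whereas transcripts of mitotic genes gather later, from late S phase through G2 and mitosis. The rumen is lined by a stratified epithelium in which keratinocytes divide mainly in the basal layer, on the basement membrane, and stop dividing as they move up through the spinous and granular layers.

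After filtering, 4830 to 10201 nuclei were kept in each library, with 3123 to 4764 UMIs (unique molecules counted) in the median nucleus. Nuclei were clustered without any cell cycle gene, so that nuclei in cycle stayed with the cell type they belong to. Keratinocyte-like nuclei numbered 13259, of which 6723 were basal-like, 2898 spinous-like and 3638 granular-like. Of the basal markers used for the naming, 9 of 10 were at least 2-fold higher in the basal-like cluster than in the other clusters. The border of the upper layers was less clear, since the spinous-like cluster had 6 of 9 spinous and 9 of 12 granular markers at that level. Lymphocyte-like nuclei (T or NK-like and B or plasma-like) numbered 9410, and stroma-like nuclei (fibroblast-, smooth muscle or pericyte- and endothelial-like) 8420. MGHS 3 stood apart: 31.7% of its nuclei, against 4.6 to 9.41% in the other libraries, lay in an unnamed cluster with a median of 594 UMIs. That cluster is in no cell group here, and the main comparisons are also given without MGHS 3. Also in no cell group were a cluster of 748 nuclei led by BLK and another of 261 nuclei led by TP63. The BLK cluster held 2.88 to 3.1% of nuclei in MGNS and 0.555 to 1% in MGHS. Before doublets were removed, 56.1% of the TP63 cluster were called doublets. Any pair of libraries shared 5 to 22 barcodes among retained nuclei.

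Nuclei in cycle were called with other genes than the 34 described. Each nucleus with at least 2000 UMIs was thinned to 2000 UMIs, and was called when it held UMIs of at least 3 of 40 further S phase genes (the S list, with TYMS, E2F1 and CDC45) or of at least 3 of 50 further mitotic genes (the G2/M list, with PLK1, AURKB and NDC80). Among keratinocyte-like nuclei the 2 lists separated the members by phase. In nuclei called by the G2/M list alone, 21 of 21 G2/M members were higher than in nuclei called by the S list alone in all 6 libraries, with a median log2 ratio of 3.92 and a range from 1.25 for the condensin subunit NCAPG to 6.01 for the spindle pole gene ASPM. Of the 13 S members, 8 were lower in all 6 libraries, with a median of -0.55, against a median of -0.14 over the 11224 genes with a mean of at least 5 CPM (UMIs of the summed nuclei scaled to a total of 1000000).

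The order of the phases was visible in single genes. CDC6, which loads the helicase, had a mean over the 6 libraries of 0.72 CPM in nuclei not called, 14.2 in those called by the S list alone, 28.8 in those called by both and 1.53 in those called by the G2/M list alone. The helicase subunits MCM3 and MCM6 had the next lowest ratios of G2/M-only over S-only nuclei, with log2 ratios of -1.84 and -1.80. POLQ, a polymerase that joins broken DNA ends, went the other way and was higher in G2/M-only nuclei in 6 of 6 libraries, with a log2 ratio of 0.73. RRM2, the subunit of ribonucleotide reductase that makes DNA precursors in S phase, had a ratio of 0.86 and was higher in 4 of 6. All 13 S members had their highest mean in nuclei called by both lists, and so did 16 of 21 G2/M members. The exceptions were ASPM, CCNB1, CENPF, CKAP2 and PRC1, which peaked in G2/M-only nuclei. CCNB1, the cyclin B that takes cells into mitosis, had a mean of 3.35 CPM in nuclei not called, 6.52 in those called by the S list alone, 74.2 in those called by both and 135 in those called by the G2/M list alone. These ratios describe the calls, since genes of 1 phase are known to be transcribed together.

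**Figure D1:**
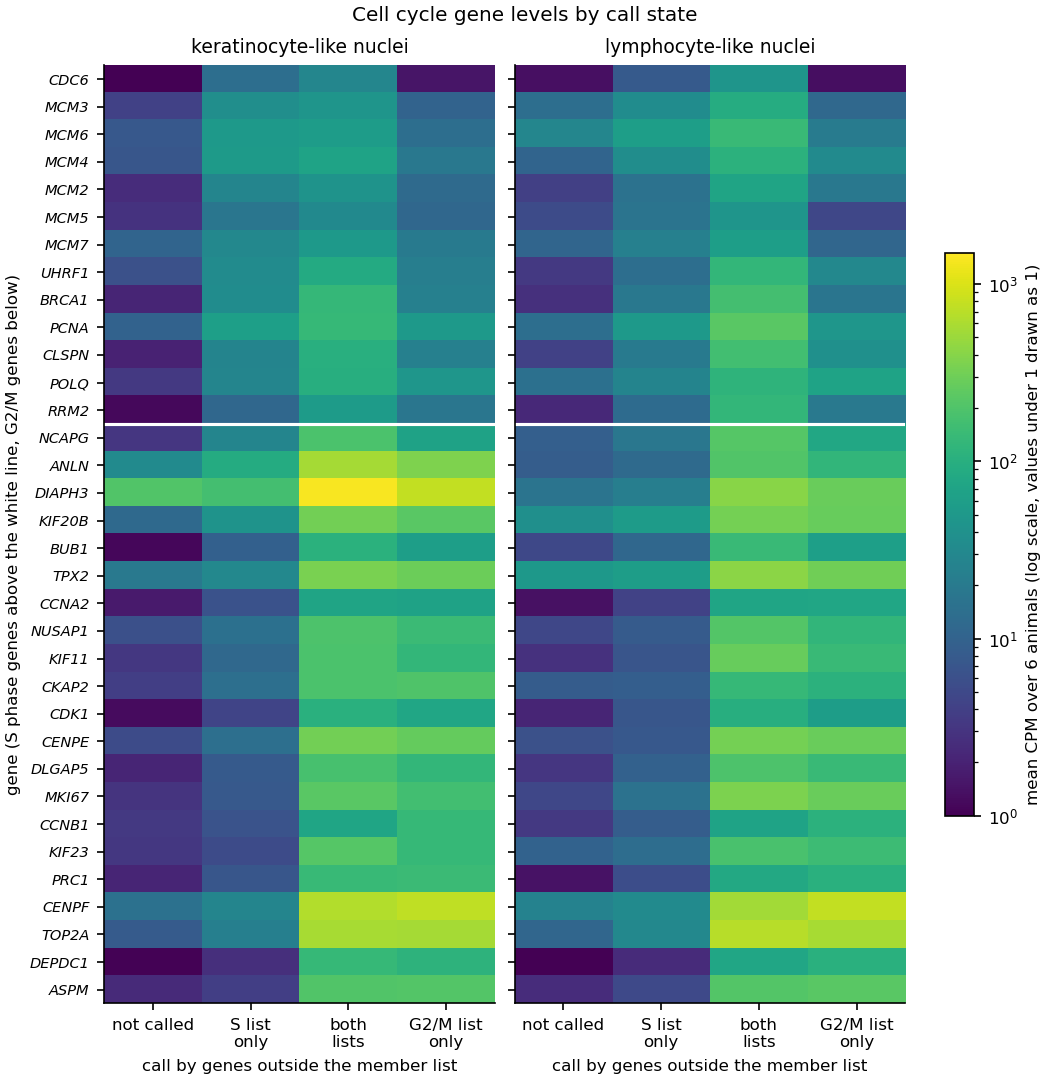
Mean CPM over the 6 animals of each member in keratinocyte-like (left) and lymphocyte-like (right) nuclei that were not called, called by the S list alone, by both lists and by the G2/M list alone, with the colour scale given in the figure. G2/M members are at their low end in the columns of not called and S-only nuclei, whereas S members such as MCM6 (keratinocyte-like mean 51.5 CPM in S-only and 14.1 CPM in G2/M-only nuclei) are low in the last column.

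Across the named cell classes, the mitotic members were mostly genes of basal-like nuclei. The mean level over the 6 libraries was highest in basal-like nuclei for 17 of 21 G2/M members, and lowest in granular-like nuclei for 17. TOP2A, the topoisomerase that untangles sister chromatids, stood at 130.1 ± 47.4 CPM (SD, n = 6) in basal-like and 5.07 CPM in granular-like nuclei. The proliferation marker MKI67, the spindle assembly factor TPX2 and the kinesin KIF20B had their highest mean in B or plasma-like nuclei instead, MKI67 at 54.8 ± 19.9 CPM. The S members were less tied to 1 class: 6 of 13 peaked in basal-like and 4 in B or plasma-like nuclei, and POLQ peaked at 33.7 ± 10.4 CPM in macrophage or dendritic-like nuclei. DIAPH3 was the exception of the mitotic list, with its highest mean, 326 ± 225 CPM, in granular-like nuclei.

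By the G2/M list, whatever the S list, each MGHS lamb had a larger share of its basal-like nuclei called than each MGNS lamb. This measure was chosen after seeing the data. The planned measure, by either list, overlapped between the groups, as given below. Nuclei called by the G2/M list made up 12.2, 11.2 and 16.2% in MGNS lambs 1 to 3 and 24, 18 and 34.5% in MGHS lambs 1 to 3 of the basal-like nuclei thinned. The groups did not overlap, with means of 25.5 ± 8.37% and 13.2 ± 2.62% (SD, n = 3 each) and a ratio of 1.93. An exact two-sided permutation test gave p = 0.1, the smallest that 3 against 3 libraries allow, and 0.3 after adjustment over the 6 cell groups compared. That adjustment does not cover the choice among ways of calling. Without MGHS 3 the MGHS mean was 21%, against 13.2% in MGNS. The mitotic calls include nuclei that the S list called too, and both kinds were larger shares in MGHS without overlap: nuclei called by both lists had means of 13.8 ± 3.1% in MGHS and 7.71 ± 2.46% in MGNS, and those called by the G2/M list alone 11.7 ± 5.29% and 5.49 ± 1.39% (SD, n = 3 each, exact two-sided permutation p = 0.1 for each). All nuclei called by the S list, with or without the G2/M list, had means of 25.3 ± 3.13% in MGHS and 21.1 ± 4.23% in MGNS, and the groups overlapped (exact permutation p = 0.3). Those called by the S list and not by the G2/M list were at 12.04, 12.67 and 15.40% in MGNS lambs 1 to 3 and 10.70, 11.95 and 11.78% in MGHS lambs 1 to 3, so that every MGHS library was below every MGNS library (exact two-sided permutation p = 0.1). Called by either list, basal-like nuclei in cycle were 24.22, 23.91 and 31.59% in MGNS lambs 1 to 3 and 34.71, 29.96 and 46.32% in MGHS lambs 1 to 3, and the groups overlapped (exact permutation p = 0.2, adjusted 1). Without MGHS 3 the means by either list were 32.3% and 26.6%. The 95% Wilson interval of a library's share by the G2/M list was at most ± 3.1 percentage points, for counting error only.

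Among all keratinocyte-like nuclei, by the G2/M list, 7.54, 5.88 and 8.79% in MGNS lambs 1 to 3 and 9.79, 9.27 and 18.8% in MGHS lambs 1 to 3 were called, without overlap between the groups (exact permutation p = 0.1, adjusted 0.3), whereas by either list the means were 18.6 ± 6.34% in MGHS and 15.5 ± 1.82% in MGNS and the groups overlapped (exact permutation p = 0.7). Without MGHS 3 the difference by the G2/M list went from 5.22 to 2.13 percentage points, and that by either list was -0.525 percentage points. Of the keratinocyte-like nuclei called, 52.5 ± 3.91% in MGNS and 33.2 ± 6.45% in MGHS were called by the S list alone, without overlap (SD, n = 3 each, exact permutation p = 0.1). The called nuclei were 90.5% basal-like in MGNS and 95% in MGHS on average. Their median UMI count before thinning was 8831 in MGNS and 8014 in MGHS, against 9731 and 8534 in keratinocyte-like nuclei not called. Nuclei just inside the threshold, with 3 genes as the larger of the 2 counts, were 5.37% in MGNS and 4.82% in MGHS, and those just outside, with 2, were 16.6% and 12.8%. Nuclei under 2000 UMIs were left out of the shares, 365 keratinocyte-like nuclei in MGNS and 609 in MGHS.

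Outside the basal layer the G2/M list marked few nuclei of the epithelium and stroma. Granular-like nuclei were called at 0.646% in MGNS and 0.795% in MGHS. The 51 granular-like nuclei called by either list had a mean over the libraries of 156 CPM of TOP2A, against 2.7 CPM in those not called. By library, TOP2A in the called nuclei was at 0, 0 and 143 CPM in MGNS lambs 1 to 3. It was at 468, 187 and 135 CPM in MGHS lambs 1 to 3, with as few as 2 called nuclei in a library. TOP2A is transcribed together with the call genes, so these values cannot tell false calls from nuclei in cycle. What the called granular-like nuclei are was not tested. Spinous-like nuclei were called at 0.856% in MGNS and 1.1% in MGHS, and stroma-like nuclei at 1.64% in MGNS and 2.16% in MGHS. Lymphocyte-like nuclei were called at 7.83 ± 3.78% in MGNS and 7.09 ± 2.53% in MGHS, and the groups overlapped (SD, n = 3 each, exact permutation p = 0.7). The S list alone marked 16.9% in MGNS and 18.5% in MGHS of lymphocyte-like nuclei and 8.73% in MGNS and 8.21% in MGHS of stroma-like nuclei. Below 2000 UMIs lay 1597 lymphocyte-like nuclei in MGNS and 1017 in MGHS, and 604 and 669 stroma-like nuclei.

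**Figure D2:**
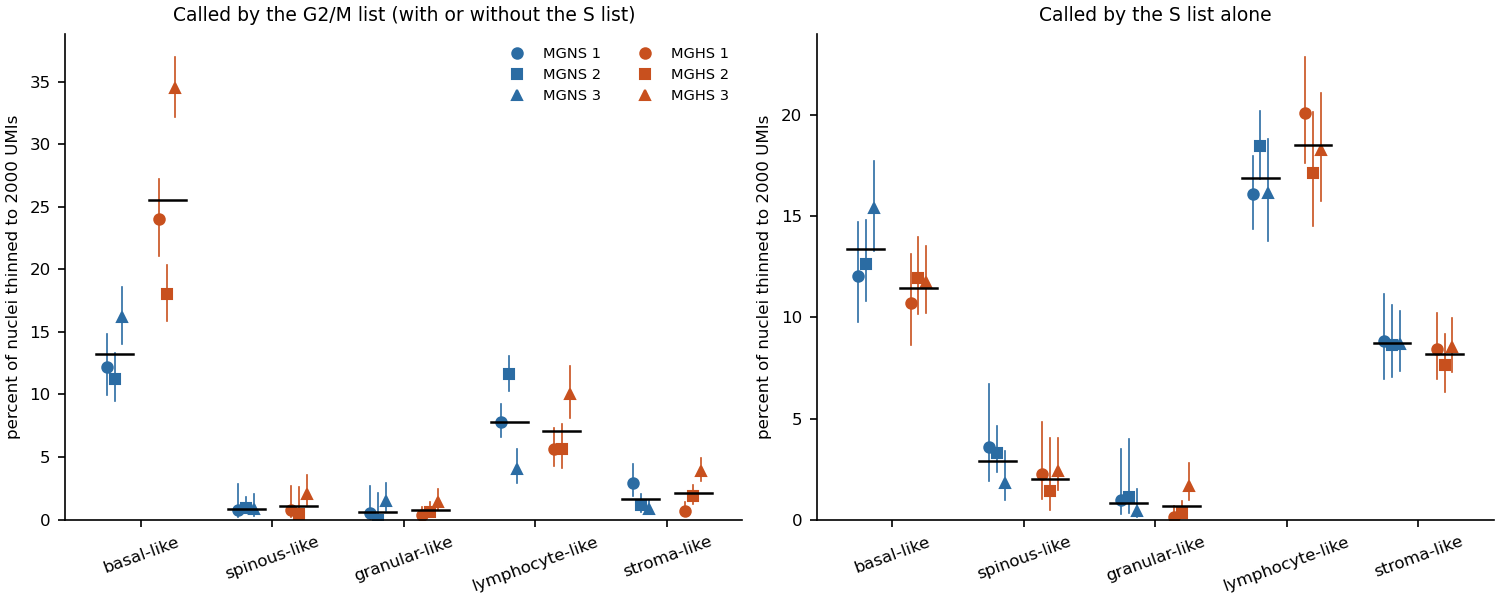
Percent of nuclei, each thinned to 2000 UMIs, called by the G2/M list (left) and by the S list alone (right) in 5 cell groups. Points are single animals with 95% Wilson intervals and black lines are group means. In basal-like nuclei the 3 MGHS points of the left panel lie between 18% and 34.5%, above the MGNS points at 11.2% to 16.2%.

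Levels were then compared with UMIs summed over all keratinocyte-like nuclei of each library, a measure that mixes the share of nuclei in cycle with the level within them. No member passed an adjusted p of 0.05 in edgeR's quasi-likelihood test with Benjamini-Hochberg adjustment, as 0% of the 16307 genes tested did, and the members' adjusted p ranged from 0.142 to 0.799. At an unadjusted p under 0.05, 20 of 21 G2/M members and 6 of 13 S members were higher in MGHS and none was lower, against 8.9% of all genes higher. DESeq2 called 6 members higher at an adjusted p of 0.05 (ANLN, CCNA2, KIF20B, MKI67, PRC1 and TOP2A), against 3.31% of all genes. All 34 log2 fold changes were above 0, with a median of 0.82 over the G2/M members, 0.57 over the S members and 0.02 over all genes. The groups did not overlap, with every MGHS library above, for 11 of 34 members, against 4.97% of all genes. MGHS 3 was the highest library for 32 of 34 members. Without it, 12 G2/M and 3 S members were higher at an unadjusted p under 0.05, with medians of 0.61 and 0.46. In that refit 190 of 16532 genes passed an adjusted p of 0.05 in edgeR, 168 of them higher and no member among them. At an unadjusted p under 0.05 there were 2905 genes in either direction.

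The basal-like nuclei alone gave the same pattern. No member passed in edgeR, where 1 of 14321 genes (0.00698%) did. At an unadjusted p under 0.05, 20 of 21 G2/M and 5 of 13 S members were higher in MGHS, against 8.51% of all genes, and DESeq2 called 6 members higher at an adjusted p of 0.05, against 1.45%. The median log2 fold changes were 0.82 and 0.51, and 0.01 over all genes. In 14 of 34 members every MGHS library was above every MGNS library, against 8.09% of all genes. Without MGHS 3, 14 G2/M and 2 S members were higher at an unadjusted p under 0.05, with medians of 0.60 and 0.32. In that refit 1751 of 14551 genes had an unadjusted p under 0.05 in either direction.

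Of the replication genes, the clamp PCNA showed the pattern clearly in the basal layer, with 29.4, 27 and 37.4 CPM in MGNS lambs 1 to 3 and 50.1, 38.2 and 76.4 CPM in MGHS lambs 1 to 3 in basal-like nuclei. Every MGHS library was above every MGNS library, MGHS 3 by far, and the log2 fold change was 0.92 (SE 0.28, adjusted p = 0.225) by edgeR. RRM2 had 6.93, 6.57 and 8.39 CPM in MGNS lambs 1 to 3 and 13.6, 9.69 and 22.9 CPM in MGHS lambs 1 to 3. It too had no overlap, in basal-like as in all keratinocyte-like nuclei, where the fold change was 1.25 (SE 0.39, adjusted p = 0.2) by edgeR and the largest of the S members. UHRF1, which keeps DNA methylation in place behind the replication fork, had 13.9, 15.8 and 18.8 CPM in MGNS lambs 1 to 3 and 22.7, 16.7 and 27.5 CPM in MGHS lambs 1 to 3, with MGHS 2 inside the MGNS range. CLSPN, a checkpoint adaptor at the fork, had a log2 fold change of 0.70 (SE 0.23), and BRCA1, which repairs broken DNA, one of 0.57 (SE 0.32), with MGNS 1 the lowest library for BRCA1 at 10.4 CPM.

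The helicase subunits had log2 fold changes of 0.09 to 0.58 in basal-like nuclei. MCM6 had 22.8, 21.5 and 24.3 CPM in MGNS lambs 1 to 3 and 23.2, 20.6 and 29.5 CPM in MGHS lambs 1 to 3 in basal-like nuclei, so that MGHS 1 and 2 lay within the MGNS range or below it, with a log2 fold change of 0.21 (SE 0.20, adjusted p = 0.617) by edgeR. MCM4 had 22.5, 18.6 and 28.4 CPM in MGNS lambs 1 to 3 and 24.7, 26.5 and 40.6 CPM in MGHS lambs 1 to 3, and MGHS 3 alone was above all MGNS libraries. MCM7 had 19.8, 19.3 and 23.4 CPM in MGNS lambs 1 to 3 and 26.6, 23.8 and 29.5 CPM in MGHS lambs 1 to 3. Its groups did not overlap, and its log2 fold change was 0.46 (SE 0.18, adjusted p = 0.302) by edgeR. The log2 fold changes of MCM2, MCM3 and MCM5 were 0.09, 0.28 and 0.58, each with an SE of 0.24 to 0.28, and that of the loader CDC6 was 0.36 (SE 0.26). In all keratinocyte-like nuclei, MCM2 and MCM6 had lower mean CPM in MGHS (6.47 and 13) than in MGNS (6.83 and 13.3), although their fitted log2 fold changes were above 0. There the median gene's ratio was -0.23 on the CPM scale and 0.02 after the TMM scaling of the fit, and the fitted values are relative to the latter.

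Of the genes that drive entry into mitosis, CCNA2, the cyclin A of S and G2 phase, had 8.66, 11.6 and 14.1 CPM in MGNS lambs 1 to 3 and 21, 18.2 and 34.4 CPM in MGHS lambs 1 to 3 in basal-like nuclei. Every MGHS library was above every MGNS library, and the log2 fold change of 1.21 (SE 0.30, adjusted p = 0.204) by edgeR was the largest of the G2/M members. CCNB1 had 17.9, 16.1 and 20.3 CPM in MGNS lambs 1 to 3 and 29.6, 21.9 and 54.8 CPM in MGHS lambs 1 to 3, also without overlap, and a fold change of 1.09 (SE 0.33, adjusted p = 0.231) by edgeR. Their partner kinase CDK1 had means of 16.3 ± 4.11 and 25.9 ± 7.15 CPM (SD, n = 3 each) in MGNS and MGHS, and its groups overlapped. Among genes that shape chromosomes, TOP2A had 92.2, 85.4 and 110.4 CPM in MGNS lambs 1 to 3 and 158, 123 and 211 CPM in MGHS lambs 1 to 3, without overlap, and a fold change of 0.88 (SE 0.23, adjusted p = 0.208) by edgeR. MKI67, which coats mitotic chromosomes, had 29.4, 35.7 and 37.7 CPM in MGNS lambs 1 to 3 and 55.4, 43.1 and 69.7 CPM in MGHS lambs 1 to 3 and no overlap. NCAPG had a log2 fold change of 0.74 (SE 0.24).

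The spindle and kinetochore genes had fold changes in a narrow range. CENPF, which binds kinetochores and microtubules, had 117, 129 and 144 CPM in MGNS lambs 1 to 3 and 211, 141 and 241 CPM in MGHS lambs 1 to 3 in basal-like nuclei, and MGHS 2 lay within the MGNS range. TPX2, which activates Aurora A on the spindle, had 57.7, 58.1 and 77.7 CPM in MGNS lambs 1 to 3 and 93.6, 72.5 and 119 CPM in MGHS lambs 1 to 3, again with MGHS 2 within the MGNS range. The motor KIF11, which pushes spindle poles apart, had means of 28 ± 2.04 CPM in MGNS and 49.1 ± 16.3 CPM in MGHS (SD, n = 3 each) without overlap. The log2 fold changes of the spindle and kinetochore genes CENPF, CENPE, BUB1, ASPM, TPX2, DLGAP5, NUSAP1, CKAP2, KIF11 and DEPDC1 spanned 0.67 to 0.99, each with its own SE of 0.22 to 0.29. For the last step, cytokinesis, the contractile ring scaffold ANLN had 93.9, 112 and 124 CPM in MGNS lambs 1 to 3 and 193, 159.5 and 189 CPM in MGHS lambs 1 to 3. Its MGHS libraries were all above the MGNS ones, and in all keratinocyte-like nuclei, with a log2 fold change of 0.81 (SE 0.17, adjusted p = 0.142) by edgeR, it had the smallest adjusted p of the members. PRC1, which bundles the midzone microtubules, had 1.06 (SE 0.30), and the midzone motors KIF23 and KIF20B had 0.84 (SE 0.26) and 0.71 (SE 0.17).

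**Figure D3:**
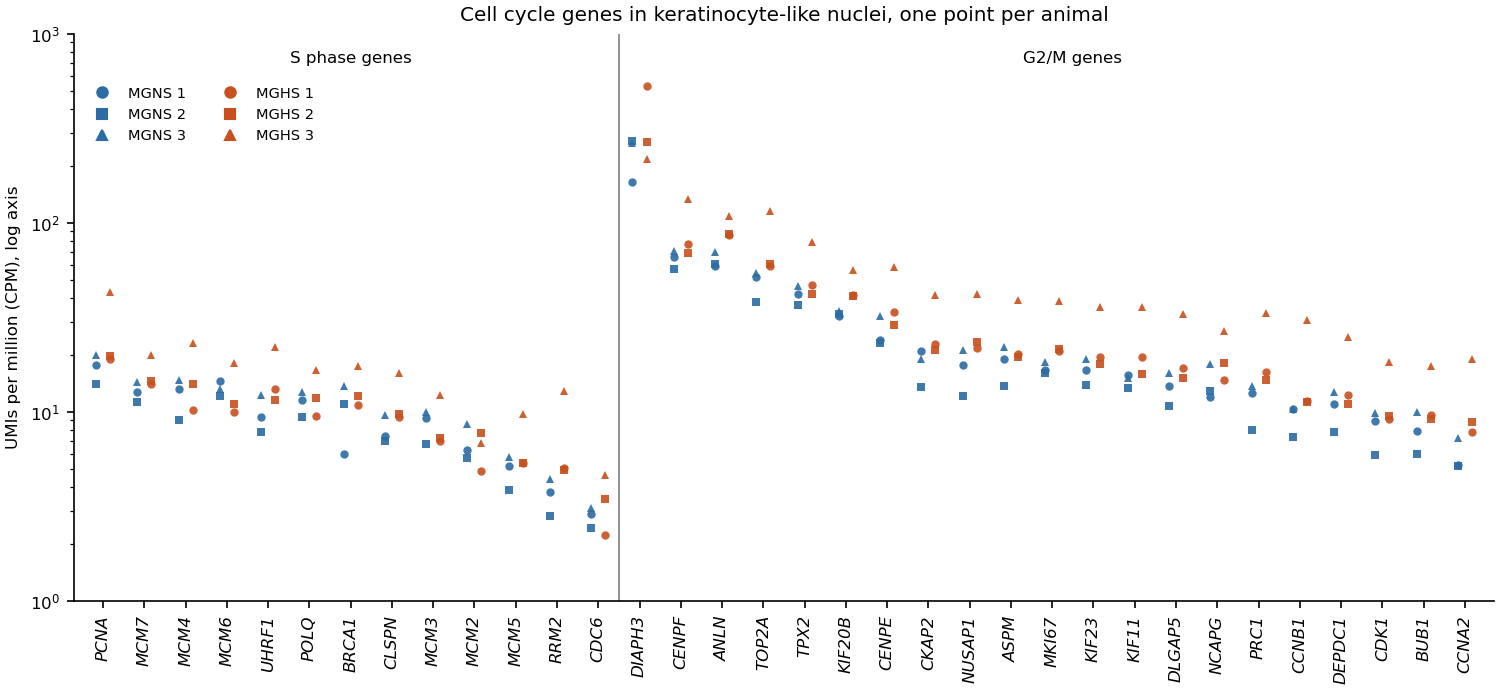
CPM of the 34 members in all keratinocyte-like nuclei, 1 point for each animal on a logarithmic axis, coloured by group. MGHS 3 is the highest point for 32 of the 34 members, and the groups are apart for 11, ANLN among them (58.8 to 70.3 CPM in MGNS and 86.3 to 109 CPM in MGHS).

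Summed marker lists of other cell types moved with the groups in the same nuclei. Where these transcripts came from, and their part in these results, was not tested. In basal-like nuclei the summed level of the 9 fibroblast markers was 77.8 to 96.1 CPM in MGNS and 146 to 286 CPM in MGHS, with none of the 9 at 0. The sums were 281 to 323 and 219 to 225 CPM for 11 T or NK markers and 2809 to 4302 and 718 to 2543 CPM for 7 neutrophil markers, both lower in MGHS without overlap, and no marker of these lists was at 0. Melanocyte markers, 6 in number, were also lower, at 88.5 to 128 CPM in MGNS and 59.8 to 79.7 CPM in MGHS. The neutrophil list was not low in the epithelium itself. Its means were 3553 CPM in MGNS and 1459 CPM in MGHS in basal-like nuclei, against 966 and 939 CPM in lymphocyte-like nuclei. The summed markers of the layers were higher without overlap for the basal list, 7807 to 8875 CPM in MGNS and 8992 to 9782 CPM in MGHS, and for the 12 granular markers, 489.7 to 725 and 787 to 952 CPM. All these values are sums and do not stand for each marker of a list. In basal-like nuclei the neutrophil and the granular list each held markers that were higher and markers that were lower in MGHS.

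Within keratinocyte-like nuclei called by either list, the members were nearer to even between the groups. No member passed in edgeR, where 1 of 12102 genes (0.00826%) did, nor in DESeq2. At an unadjusted p under 0.05, 13 G2/M and 2 S members were higher in MGHS, against 7.83% of all genes, with median log2 fold changes of 0.46 and 0.27. The groups did not overlap for 15 of 34 members, against 7.64%. MGHS 1 was the highest library for 19 members here and MGHS 3 for 7. CCNA2 had 26.1, 34.3 and 37.6 CPM in MGNS lambs 1 to 3 and 51.8, 49.4 and 58.7 CPM in MGHS lambs 1 to 3 in called nuclei, without overlap, and a log2 fold change of 0.82 (SE 0.20, adjusted p = 0.177) by edgeR. These nuclei held different shares of S-only nuclei in the 2 groups, as given above, so their mean level can also move with the phases they are in. The size of that part was not tested.

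Within nuclei called by the G2/M list, with or without the S list, the members lay on both sides of 0. There were 85 to 539 such keratinocyte-like nuclei in a library. Among them, no member passed in edgeR, where 2 of 10563 genes (0.0189%) did, and none was higher or lower at an unadjusted p under 0.05, against 5.72% of all genes higher. The median log2 fold change was 0.02 over the G2/M members, of which 12 of 21 were above 0, and -0.11 over the S members, of which 3 of 13 were. On the CPM scale the MGHS mean was the higher for 9 of 34 members. Every MGHS library was below every MGNS library for 3 G2/M members, ASPM, TPX2 and DEPDC1, against 12% of all genes, and above for none. The summed level of the G2/M members without DIAPH3 was 4707, 5103 and 4563 CPM in MGNS lambs 1 to 3 and 4853, 4527 and 4018 CPM in MGHS lambs 1 to 3, and the MGHS mean was 6.79% below the MGNS mean (exact permutation p = 0.4). The sum of the S members was 682 ± 139 CPM in MGNS and 602 ± 47 CPM in MGHS (SD, n = 3 each, exact permutation p = 0.4). TOP2A had 626, 587 and 539.8 CPM in MGNS lambs 1 to 3 and 576, 580.0 and 503 CPM in MGHS lambs 1 to 3 in these nuclei, with a log2 fold change of 0.03 and an SE of 0.20. PCNA had 80.6, 104 and 94.8 CPM in MGNS lambs 1 to 3 and 111, 78.4 and 110.1 CPM in MGHS lambs 1 to 3, and its groups overlapped. CCNA2 had the most positive fold change, 0.37 (SE 0.19, adjusted p = 0.515) by edgeR, and DIAPH3 and MCM2 the most negative, -0.46 and -0.44. The intervals were wide enough that differences of the size of their SE, 0.16 to 0.35 on the log2 scale, could not be told from none.

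**Figure D4:**
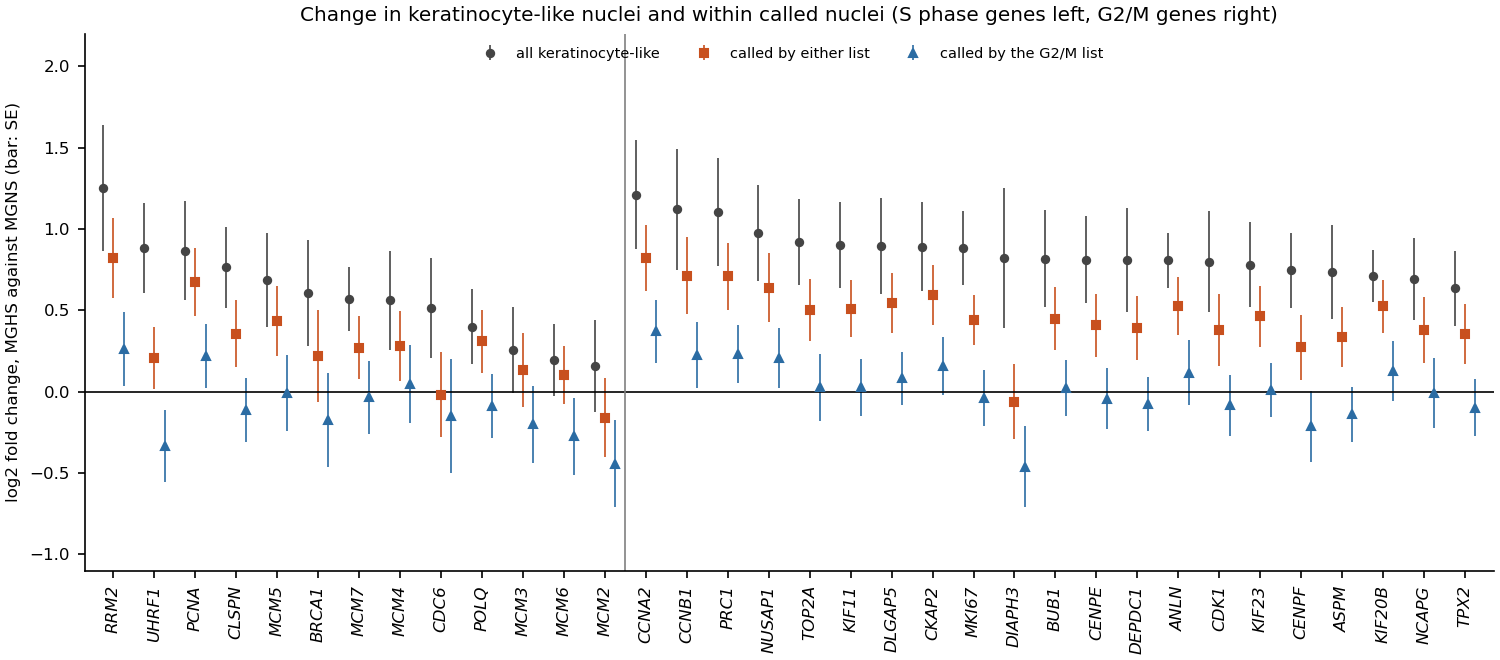
Log2 fold change of each member, MGHS over MGNS, with its SE from edgeR, in all keratinocyte-like nuclei, in those called by either list and in those called by the G2/M list. The points of the G2/M members centre on 0.82 in the first set, 0.46 in the second and 0.02 in the third (medians).

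The share and the level were separated by arithmetic on the same values. The CPM of a member in keratinocyte-like nuclei equals its level in called and in other nuclei, weighted by the share of UMIs each holds, so the difference between groups was recomputed with 1 of the 2 held at its mean over the 6 libraries. By the G2/M list, called nuclei held 7.63, 5.52 and 8.83% in MGNS lambs 1 to 3 and 9.21, 8.9 and 19.4% in MGHS lambs 1 to 3 of the UMIs (exact permutation p = 0.1), and a median of 82% of the UMIs of a G2/M member. The median log2 ratio of the G2/M members on the CPM scale was 0.59. With equal shares it was 0.02, and with equal levels 0.62. For the S members the values were 0.36, 0.12 and 0.28, and for all genes -0.23, -0.25 and 0.02. Called by either list, which gave MGHS and MGNS closer UMI shares (18.5 ± 7.29% and 15 ± 1.95%), the G2/M median was 0.41 with equal shares and 0.25 with equal levels. The division therefore depended on the call. The G2/M list is of genes transcribed together with the mitotic members, so the level of these members in nuclei it calls is in part set by the call itself, and the value at equal shares is a description of that call and no test of the level. Without MGHS 3 the G2/M median by the G2/M list was 0.27, with 0.0016 at equal shares and 0.25 at equal levels, and by either list 0.34 and -0.056. CCNA2 was among the members with the most left at equal shares of the G2/M list, 0.40 of 1.01, and RRM2 led the S members with 0.52 of 1.07. These values have no test of their own.

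Keratinocyte-like nuclei that neither list called still held some transcripts of the members, and their median log2 fold changes were again above 0. No member passed in edgeR, where 1 of 15799 genes (0.00633%) did. At an unadjusted p under 0.05, 11 G2/M and 5 S members were higher, against 9.42% of all genes, and DESeq2 called 4 (CENPF, NUSAP1, TOP2A and UHRF1), against 4.37% of all genes. The groups did not overlap, with MGHS above, for 5 members, against 5.08%. UHRF1 had 4.11, 2.31 and 4.62 CPM in MGNS lambs 1 to 3 and 7.22, 5.71 and 12.9 CPM in MGHS lambs 1 to 3 in these nuclei, with MGHS 3 the highest, and the largest S fold change after RRM2, 1.502 (SE 0.38, adjusted p = 0.142) by edgeR. TOP2A had 3.93, 4.86 and 7.11 CPM in MGNS lambs 1 to 3 and 6.31, 8.17 and 18.1 CPM in MGHS lambs 1 to 3, and MGHS 1 lay within the MGNS range. POLQ was the 1 member with every MGHS library below every MGNS library, at 5.14, 3.78 and 3.31 CPM in MGNS lambs 1 to 3 and 2.15, 2.95 and 2.62 CPM in MGHS lambs 1 to 3. Of the 15799 genes tested, 4342 also had every MGHS library below on the CPM scale. MGHS 3 was the highest library for 28 of 34 members, and without it 5 G2/M and 3 S members were higher at an unadjusted p under 0.05. In that refit 242 of 16131 genes passed an adjusted p of 0.05 in edgeR, 215 of them higher and no member among them. At an unadjusted p under 0.05 there were 2920 genes in either direction.

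DIAPH3, a formin that builds actin filaments and takes part in cytokinesis, did not follow the other mitotic members across the layers. In called basal-like nuclei it had 633, 978 and 815 CPM in MGNS lambs 1 to 3 and 803, 625 and 579 CPM in MGHS lambs 1 to 3. In basal-like nuclei not called it had 19.2, 79.8 and 39.3 CPM in MGNS lambs 1 to 3 and 37.1, 36.3 and 51 CPM in MGHS lambs 1 to 3, and in granular-like nuclei not called 151, 289 and 317 CPM in MGNS lambs 1 to 3 and 754, 314 and 113 CPM in MGHS lambs 1 to 3. The level in granular-like nuclei not called was above that in basal-like nuclei not called in every library, and spinous-like nuclei not called, at 135, 248 and 153 CPM in MGNS lambs 1 to 3 and 296, 260.3 and 121 CPM in MGHS lambs 1 to 3, were above basal-like ones as well. MKI67 showed nothing of the kind, with 0.841, 0.55 and 0.696 CPM in MGNS lambs 1 to 3 and 1.81, 1.37 and 2.19 CPM in MGHS lambs 1 to 3 in granular-like nuclei not called. Of the DIAPH3 UMIs of keratinocyte-like nuclei, 39.4% lay in called nuclei, against a median of 86.4% over the G2/M members.

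Within the keratinocyte-like nuclei DIAPH3 also differed less clearly between the groups. In all keratinocyte-like nuclei it had 165, 271 and 263 CPM in MGNS lambs 1 to 3 and 531, 268 and 217 CPM in MGHS lambs 1 to 3, with MGHS 1 alone above the MGNS range and MGHS 3 within it. Its log2 fold change there was 0.82 (SE 0.43, adjusted p = 0.36) by edgeR, and 0.26 without MGHS 1. In basal-like nuclei it was 0.23 (SE 0.22, adjusted p = 0.623) by edgeR, the lowest of the G2/M members, and in nuclei called by the G2/M list it was -0.46 (SE 0.25). Granular-like nuclei were 2.31 to 7.38% of all nuclei in MGNS and 8.16 to 16.6% in MGHS, so the keratinocyte-like sum of this gene can also move with the layers. DIAPH3 was left out of the sums of G2/M members for this reason, a choice made after its values were seen.

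**Figure D5:**
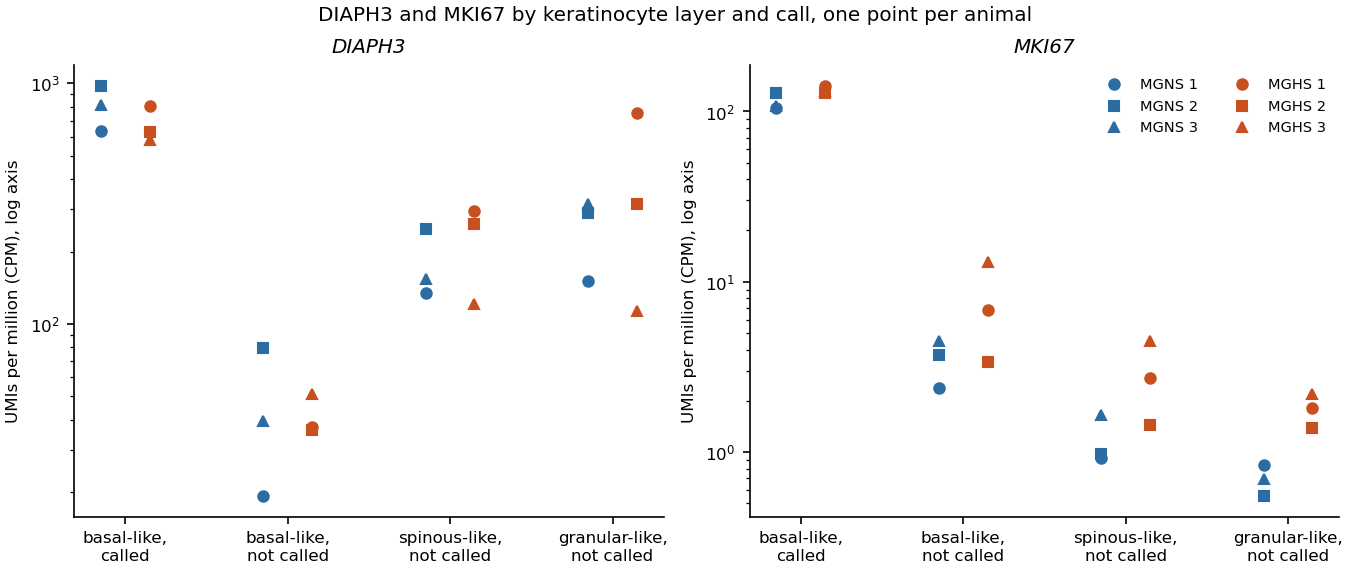
CPM of DIAPH3 and MKI67, 1 point for each animal, in called basal-like nuclei and in basal-, spinous- and granular-like nuclei not called. DIAPH3 is at 43.8 ± 20.3 CPM in basal-like and 323 ± 228 CPM in granular-like nuclei not called (mean ± SD, n = 6), whereas MKI67 stays near the bottom in all nuclei not called.

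In the upper layers few transcripts of the members were left to compare. In spinous-like nuclei, 20 of 34 members passed the filter on low counts. None passed an adjusted p of 0.05 in edgeR (0% of all genes did) or DESeq2, and 2 were higher at an unadjusted p under 0.05, against 4.91% of all genes. The median log2 fold change of the 14 G2/M members tested was 0.53, and without MGHS 3 it was -0.17 over 12 tested. Leaving out 1 library, the G2/M members higher at that level numbered 0 to 7, the most without MGHS 2. In that refit 1152 of 13255 genes were at that level in either direction. In granular-like nuclei, 20 of 34 members were tested, 3 were higher at an unadjusted p under 0.05, against 6.24% of all genes, and none passed after adjustment in edgeR (0% of all genes) or DESeq2. Without MGNS 3, 7 of 17 G2/M members tested were higher at that level, against 1570 of 12639 genes in either direction. Members that passed the filter are not a sample of all members, so these counts describe only the genes tested.

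In lymphocyte-like nuclei the mitotic members had mostly lower levels in MGHS, within the spread of the libraries. No member passed in edgeR, where 0.327% of 12531 genes did, or in DESeq2, and none was higher or lower at an unadjusted p under 0.05, against 4.44% of all genes higher and 4.76% lower. The median log2 fold change was -0.31 over the G2/M members, of which 1 of 21 was above 0, and -0.07 over the S members. No member had groups that did not overlap, whereas of the 12531 genes 873 had every MGHS library above and 877 had every one below. These values rested on single libraries: the G2/M median was -0.68 with 5 members lower at an unadjusted p under 0.05 without MGHS 3, -0.58 with 5 lower without MGNS 3, -0.16 without MGHS 2 and -0.059 without MGNS 2, with none lower in the last pair. It was -0.20 without MGHS 1. Genes with an unadjusted p under 0.05 in either direction numbered 1332 of 12828 without MGHS 3 and 1177 of 12833 without MGNS 3. TOP2A had 93.8, 123 and 55.7 CPM in MGNS lambs 1 to 3 and 59.5, 47.7 and 113 CPM in MGHS lambs 1 to 3, with MGNS 2 and MGHS 3 both high. MGNS 2 was the highest library for 19 members and MGHS 3 for 13. PCNA had 39.3, 41.6 and 31.6 CPM in MGNS lambs 1 to 3 and 29.9, 23.3 and 49.8 CPM in MGHS lambs 1 to 3. B or plasma-like nuclei, in which MKI67 was highest, were 11.1 to 22.2% of the lymphocyte-like nuclei in MGNS and 2.12 to 8.66% in MGHS, and their part in these values was not tested.

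Within lymphocyte-like nuclei called by either list, the medians were -0.34 for the G2/M and 0.00 for the S members. No member passed in edgeR, where 0.0558% of all genes did, or in DESeq2, and 3 G2/M members were lower in MGHS at an unadjusted p under 0.05, against 4.12% of all genes. Without MGHS 3 this count was 9 with a median of -0.59, and without MGNS 3 it was 6 with -0.47. It was 1 on leaving out any of the other 4, with medians of -0.26 to -0.19. Genes with an unadjusted p under 0.05 in either direction numbered 1173 of 9109 without MGHS 3 and 674 of 9593 without MGNS 3. The G2/M members separated by phase here as in keratinocytes. Of these, 20 of 21 were higher in G2/M-only than in S-only nuclei in all 6 libraries, with a median log2 ratio of 3.87. The S members had a median of -0.97, against -0.43 over the genes with a mean of at least 5 CPM. In keratinocyte-like nuclei these medians were -0.55 and -0.14. Fewer S members were lower in all 6 libraries here, 1 of 13 against 8 of 13 in keratinocyte-like nuclei.

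The difference between basal-like and lymphocyte-like nuclei was tested directly, as an interaction of cell group and treatment in edgeR with the animal as a block, since both kinds of nuclei came from the same lambs. This comparison was not among those planned. It sets a cell group with a G2/M median of 0.82 against one with -0.31. No member passed an adjusted p of 0.05, against 10 of 15770 genes (0.0634%). At an unadjusted p under 0.05, 24 of 34 members had a higher MGHS over MGNS ratio in basal-like nuclei and none a lower one, against 5.33% of all genes. The interaction was above 0 for 34 of 34 members, with a median of 1.02 on the log2 scale and a range from 0.27 to 1.36. Leaving out 1 lamb moved these counts: 19 members had p under 0.05 without MGHS 3 and the median was 1.14, whereas 9, 8 and 11 did without MGNS 1, MGNS 2 and MGHS 1. Without MGNS 3, 30 did and 8 passed an adjusted p of 0.05 in edgeR, as 47 of 16149 genes did. No member passed on leaving out any of the other 5. Of all genes, 5.82% had p under 0.05 and a higher ratio in basal-like nuclei without MGHS 3, and 7.18% without MGNS 3. Without MGNS 1, MGNS 2 and MGHS 1 the shares were 3.3, 3.87 and 3.29%. For PCNA the interaction was 1.08 (SE 0.25, adjusted p = 0.231 by edgeR).

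In stroma-like nuclei, 32 of 34 members were tested, without RRM2 and CDC6. None passed in edgeR (0% of all genes did) or DESeq2, and 6 G2/M and 2 S members were higher in MGHS at an unadjusted p under 0.05, against 7.34% of all genes. The groups did not overlap for 4 members, ANLN, BUB1, CKAP2 and CLSPN, a share close to the 10% of all genes. ANLN had 9.67, 7.6 and 13.5 CPM in MGNS lambs 1 to 3 and 15.5, 19.8 and 26.1 CPM in MGHS lambs 1 to 3. MGHS 3 was the highest library for 28 of 34 members. Without it, 2 G2/M and 0 S members were higher at an unadjusted p under 0.05, and the G2/M median went from 0.61 to 0.27. Without MGHS 1 the count of G2/M members was 15 and the median 1.03, and without MGNS 2 or MGNS 3 the counts were 3 and 2. Genes with an unadjusted p under 0.05 in either direction numbered 1873 of 15229 without MGHS 3 and 1916 of 15508 without MGHS 1. Without MGNS 2 and MGNS 3 they numbered 1386 of 15544 and 1795 of 15352. Some marker lists moved with the groups here too, without overlap. The fibroblast list summed to 8384 to 8879.9 CPM in MGNS and 12236 to 13012 CPM in MGHS. The smooth muscle or pericyte list summed to 997 to 1227 and 1544 to 1841 CPM. The T or NK list stood at 378 to 696 and 209 to 347 CPM. The B or plasma list stood at 1695 to 2349.8 and 1538 to 1691 CPM. That list was of the same order in lymphocyte-like nuclei, with means of 2495 CPM in MGNS and 1311 CPM in MGHS. Where these transcripts came from, and their part in the result, was not tested.

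Summed over all nuclei of a library, the members had smaller fold changes. None passed in edgeR (0% of all genes did), and 2 were higher in MGHS at an unadjusted p under 0.05, against 9.39% of all genes. DESeq2 called 1 member higher, ANLN, against 4.38% of all genes. The medians were 0.28 for G2/M and 0.22 for S members, and 0.05 and 0.02 without MGHS 3. This sum can also move with the makeup of the tissue, in which keratinocyte-like nuclei were 25.4 to 30.6% of nuclei in MGNS and 29.6 to 40.9% in MGHS.

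Other genes of the cycle, from lists that hold no member, were compared in keratinocyte-like nuclei in the same fit. None passed an adjusted p of 0.05 in edgeR. At an unadjusted p under 0.05, 31 of 50 genes of the G2/M list and 7 of 40 of the S list were higher in MGHS and none was lower, against 8.9% of all genes higher and 7.98% lower, with medians of 0.76 and 0.35, and DESeq2 called 6 and 0, against 3.31% of all genes called higher. Of 44 regulators (cyclins D and E, CDK inhibitors, E2F and RB genes, checkpoint genes), 7 were higher and 2 lower at that level, with a median of 0.26, and DESeq2 called 2. On the CPM scale, every MGHS library was above every MGNS library for 2 regulators and below for 6, against 4.97% and 24.4% of all genes. The smallest adjusted p was that of FAM83D, a spindle protein, with 10.6, 13.2 and 12.6 CPM in MGNS lambs 1 to 3 and 17.7, 23.6 and 26.4 CPM in MGHS lambs 1 to 3 and a log2 fold change of 1.13 (SE 0.19, adjusted p = 0.133 by edgeR). The kinase MELK had 0.79 (SE 0.20). WEE1, the kinase that holds CDK1 inactive before mitosis, had 18.4, 16.4 and 22.9 CPM in MGNS lambs 1 to 3 and 45.2, 43 and 25 CPM in MGHS lambs 1 to 3 and 1.25 (SE 0.32). All 3 had every MGHS library above every MGNS library, and WEE1 had its MGHS highs in MGHS 1 and 2 rather than in MGHS 3.

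Genes with a pattern like that of the members across cell classes were sought outside all cell cycle lists. Over 72 sums (12 classes in 6 libraries, which share animals and depth) and 14993 genes, the Pearson correlation with the mean of the members was 0.87 for PRR11, 0.85 for CIT, 0.83 for FAM72A and 0.83 for TACC3. Among the members, MKI67 followed the mean of the others most closely, at 0.89, and DIAPH3 least, at 0.19, with MCM7 at 0.47 and ANLN at 0.53 next. These correlations are descriptions of the sums.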

How the data were processed

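RNA from nuclei of the ventral rumen epithelium was read from 6 separate lambs, 3 a group per the labels. The values deposited are raw UMI counts, 1 matrix a lamb. Per the file headers the version of Cell Ranger was 8.0.0; the submitters' processing notes name version 2.1.1 instead. No genome build is named in the sources used here. The files' gene numbers were matched to symbols for 26741 of 26741 genes. How reads shared by overlapping or similar genes were counted is not given either.

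From the counts, barcodes with 300 or more genes and no more than 10% of UMIs mitochondrial were kept, without the 0.5% with the most UMIs. Doublets were removed with Scrublet (scanpy 1.11.5); where it called under 0.5%, the highest scores at 0.8% per 1000 nuclei were removed. Libraries held 34418856 to 59997793 UMIs. Leiden clustering (igraph 0.11.9, resolution 0.8, 30 components, 5 neighbours per library, 2000 variable genes without 168 cell cycle genes) gave 22 clusters, named from markers. UMIs summed per library and cell group were tested with edgeR 4.0.16 (filterByExpr minimum count 10, TMM, robust quasi-likelihood F test; SE from fold change and F; R 4.3.3), Benjamini-Hochberg adjusted over all genes tested at 0.05; DESeq2 1.42.0 was the alternative. Shares used exact two-sided permutation tests and Wilson intervals. Scripts were tested on simulated data.

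The members and lists were chosen with earlier results of these data known. Values per library are given for the 5 members of each phase with the most keratinocyte-like UMIs and the 3 with the largest fold change in the keratinocyte-like and basal-like comparisons; further members with values by library (such as MKI67 and POLQ), calls by the G2/M list whatever the S list and the sums without DIAPH3 were chosen after seeing the data. Of the genes most like the members across cell classes, 1 is not reported here.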

Additional observations from a re-analysis of the deposited data

How the results depend on the processing

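The alternatives were upper quartile scaling, no filter on low counts, DESeq2, doublets kept, clustering with the cell cycle genes, other call thresholds, thinning to 1000 UMIs or none, and leaving out each library in turn. Chosen after seeing the data were calls by the G2/M list whatever the S list, and counting the low-UMI cluster or the TP63 cluster as keratinocyte-like. Within a cell group, the count of members past an adjusted p of 0.05 in edgeR was 0 under all of them except without the filter on low counts in called lymphocyte-like nuclei, where it was 1. DESeq2 called 1 member in all nuclei, 6 in keratinocyte-like, 6 in basal-like and 4 in keratinocyte-like nuclei not called. Leaving out a library, 10 to 20 G2/M and 2 to 7 S members were higher in keratinocyte-like nuclei at an unadjusted p under 0.05. The counts were 14 to 20 and 2 to 9 in basal-like nuclei, and 3 to 14 G2/M members in keratinocyte-like nuclei not called. Over all genes, in either direction, 1897 of 16595 to 2905 of 16532 were at that level in keratinocyte-like nuclei. The ranges were 1410 of 14592 to 2308 of 14949 in basal-like and 1970 of 16178 to 2920 of 16131 in keratinocyte-like nuclei not called.

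The labels name separate sheep, so the libraries were not treated as paired by replicate number. The correlations of same-numbered deviations were -0.13, -0.07 and 0.03. With 3 libraries a group, these values cannot decide whether libraries of the same number shared a batch. With the replicate number as a block, 0 members were called in every comparison. The block gave 8 S members at an unadjusted p under 0.05 in basal-like nuclei, against 5 without it, and 7 against 11 G2/M members in keratinocyte-like nuclei not called. Not every library correlated best with its own number.

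The difference in the share called by the G2/M list kept its sign under every alternative in basal-like and keratinocyte-like nuclei, from 7.8 to 16.6 and from 2.13 to 6.9 percentage points, MGHS minus MGNS. The difference by either list (in points) kept its sign in basal-like nuclei alone. In keratinocyte-like nuclei it was 3.12, but -9.41 not thinned, -0.656 with 2 call genes and -0.525 to 5.21 leaving out a library. In spinous-like nuclei it was -0.642, but 0.432 thinned to 1000 UMIs, 0.314 with cell cycle genes kept in the clustering and 0.242 by the G2/M list. In granular-like nuclei it was 0.00474, but -5.65 not thinned, -2.94 with 2 call genes, -0.128 with cell cycle genes kept and -0.764 to 0.512 leaving out a library. In lymphocyte-like nuclei it was 0.866, but -1.32 thinned to 1000, -3.96 not thinned, -0.625 with 5 call genes, -0.744 by the G2/M list and -1.39 to 3.55 leaving out a library. In stroma-like nuclei it was 0.00999, but -3.81 not thinned, -1.17 with 2 call genes, -0.0763 with doublets kept, -0.119 with cell cycle genes kept and -1.02 to 0.688 leaving out a library. The causes were not tested. Leaving out each library in turn, also chosen after seeing the data for the interaction and for the share and level split, gave 0 to 8 members called in the interaction. The G2/M median by the G2/M list was 0.0016 to 0.085 at equal shares and 0.25 to 0.79 at equal levels, and by either list 0.33 to 0.47 and -0.056 to 0.40.

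Of the 546 refits of named members, 11 reversed. MCM6 in keratinocyte-like nuclei was -0.0023 without MGHS 3 and up to 0.30 leaving out another library. In called keratinocyte-like nuclei, calling by the G2/M list gave -0.21 for CENPF, -0.27 for MCM6, -0.035 for MCM7, -0.10 for TPX2 and -0.34 for UHRF1, a threshold of 5 genes gave -0.13 for MCM6 and -0.16 for UHRF1, and DIAPH3 was 0.25 with 2 genes, 0.025 without MGHS 3 (from -0.18 leaving out another) and 0.0066 without MGNS 3. With 3 lambs a group, no share could pass 0.05, and members at a few CPM in nuclei not called rest on few molecules.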

Other observations

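Nuclei in the mitotic part of the cycle were also found among immune cells other than T cells. Macrophage or dendritic-like nuclei, which engulf and present antigens, were called by the G2/M list at 10.7, 9.15 and 6.11% in MGNS lambs 1 to 3 and 8.66, 14.7 and 9.33% in MGHS lambs 1 to 3, and the groups overlapped (exact two-sided permutation p = 0.5). B or plasma-like nuclei, the antibody lineage, were called at 8.56, 21.2 and 9.02% in MGNS lambs 1 to 3 and 14.1, 5 and 16.4% in MGHS lambs 1 to 3, with a Wilson interval of up to ± 11.4 points where a library had few nuclei. T or NK-like nuclei stood at 6.78 ± 3.26% in MGNS and 6.59 ± 2.56% in MGHS (SD, n = 3 each).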
